A study of Mus musculus with 10 samples.

Results

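Genes of iron uptake, storage and export were followed in alveolar macrophages, which patrol the airspaces of the mouse lung. They were chosen by symbol (Trf, Tfrc, Slc11a2, Slc11a1, Slc40a1, Fth1, Ftl1, Hfe, Hp and Lcn2), and all 10 were found among the 26173 genes of the deposited table. The mice were C57BL/6, aged 16 weeks and given as female in the labels, and RNA sequencing covered 5 groups with 2 samples each. From Bach2-floxed CD4cre knockout mice there were macrophages with aberrant surface markers (aberrant-marker) and a second fraction with the marker phenotype of controls (normal-marker). The Cre driver Cd4 is active in T cells, so these macrophages need not have lost Bach2 themselves. Both fractions were picked by their surface markers. The control mice of that line gave the conditional control group. Whether these controls carried the floxed allele or Cre is not given in the sources used here. The other groups were Bach2 germline knockout mice and wild-type mice. Per the series title, the study asked what Bach2 does for alveolar macrophages, here by comparing those of Bach2 knockout and control mice. Bach2 represses transcription in several immune cell types.

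Macrophages take up iron bound to transferrin through the transferrin receptor, or with haem from engulfed red cells, keep it in ferritin, and release it through ferroportin. Much of this traffic is set at the level of mRNA by iron regulatory proteins, which bind a hairpin called the iron-responsive element when cells are short of iron. In the 5′ untranslated region (UTR) the hairpin blocks translation, as in ferritin and ferroportin, and in the 3′ UTR of the transferrin receptor it protects the mRNA from decay. Alveolar macrophages are known to hold much ferritin and to sequester iron from the airspace.

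The hairpins are shown because they tell the mRNAs known as targets of iron regulatory proteins from the others. A search for C, 5 bases, CAGTGN and a paired stem (5 pairs above the lone C, at least 3 of 5 below it, N not G) on the sense strand found 1 hairpin in Fth1, 1 in Ftl1, 1 in Slc40a1 and 4 in Tfrc. The same pattern was found in 0.228% of 33363 mouse transcripts of GENCODE M21 with a RefSeq match, which differ in length. Slc11a2 held a hairpin with 1 extra unpaired base in the upper stem, a pattern found in 0.438% of these transcripts. Sequences are given 5′ to 3′ as DNA from GENCODE M21 (build GRCm38), and the capitals mark the lone C and the loop.
Fth1, 5′ UTR, exon 1 of 4, chr19:9982733-9982759, plus strand: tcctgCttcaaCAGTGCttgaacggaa
Ftl1, 5′ UTR, exon 1 of 4, chr7:45459780-45459806, minus strand: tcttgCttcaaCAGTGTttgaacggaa
Slc40a1, 5′ UTR, exon 1 of 8, chr1:45925466-45925492, minus strand: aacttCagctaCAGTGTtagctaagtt
Tfrc, 3′ UTR, exon 19 of 19, chr16:32631220-32631246, plus strand: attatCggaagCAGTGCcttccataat
Tfrc, 3′ UTR, exon 19 of 19, chr16:32631599-32631625, plus strand: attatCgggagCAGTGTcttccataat
Tfrc, 3′ UTR, exon 19 of 19, chr16:32631664-32631690, plus strand: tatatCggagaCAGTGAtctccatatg
Tfrc, 3′ UTR, exon 19 of 19, chr16:32631711-32631737, plus strand: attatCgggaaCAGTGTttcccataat
Slc11a2, 3′ UTR, exon 16 of 16, chr15:100395153-100395180, minus strand: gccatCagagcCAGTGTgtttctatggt
No match of either pattern was found in the transcripts searched for Slc11a1, Trf, Hfe, Hp and Lcn2, which says only that these letters are not in them. The data measure mRNA level and not translation.

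Values are FPKM, which scales fragments to transcript length and to sequencing depth, so levels of different genes can be set side by side. The columns of a group correlated at 0.993 to 0.998 on the log2(FPKM + 1) scale over the genes compared, against 0.685 to 0.853 between groups, and agree nearly within sampling noise. They were therefore counted as 2 runs of 1 library per group, so the differences were not tested and carry no p-value. Both run values stand beside each mean. A call needed a 4-fold difference on the log2(FPKM + 1) scale, both for the means and for each pairing of single runs, and a level of 20 FPKM or more on the higher side. Adding 1 FPKM shrinks the differences of low genes, and folds given without a log2 value are plain ratios of FPKM. The estimated depth was 7.67 to 9.44 M fragments per run (M, 1e6).

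Labels and libraries disagreed in 1 respect. The Y-linked gene Eif2s3y was at 39.9 FPKM in the germline knockout library and 60.8 FPKM in the wild-type library, although all mice were labelled female. It was at 0.107 FPKM or listed at 0 in the 3 libraries of the conditional line. Xist, a gene active in female cells, was at 3.75 to 9.08 FPKM in those libraries. In the germline knockout and wild-type libraries Xist was at 0.00237 FPKM or lower. Bach2 itself was at 0.0571 FPKM or lower in every library and could not check the genotypes. The aberrant-marker library also held markers of other cells. Of 10 dendritic cell markers, 8 were at 1 FPKM or more there and 5 in the conditional control. Summed levels were 3523 to 3555 FPKM, against 31.1 to 33.4 FPKM in the conditional control, where Flt3, Cd209a and Fscn1 were listed at 0. Ccr7 (1564 FPKM) and Cd83 (1276 FPKM) made up most of the aberrant-marker sum. Xcr1 (3.6e-13 FPKM, against 2.09 FPKM) and Clec9a (0.620 FPKM, against 1.90 FPKM) were lower there than in the conditional control. Of 7 T cell markers, 6 were at 1 FPKM or more in the aberrant-marker library (139 to 145 FPKM summed) and 0 in the conditional control (0.484 to 0.497 FPKM). The dendritic cell markers summed to 169 to 174 FPKM in the germline knockout runs, against 64.2 to 72.0 FPKM in the wild-type runs. Ccr7 (71.6 FPKM) and Cd83 (60.4 FPKM) made up most of the germline knockout sum. The part of dendritic cells and T cells in the differences below was not tested, and neither was that of sex. Where the wild type is set against the conditional control, or one line against the other, sex cannot be told apart from mouse line.

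**Figure D1:**
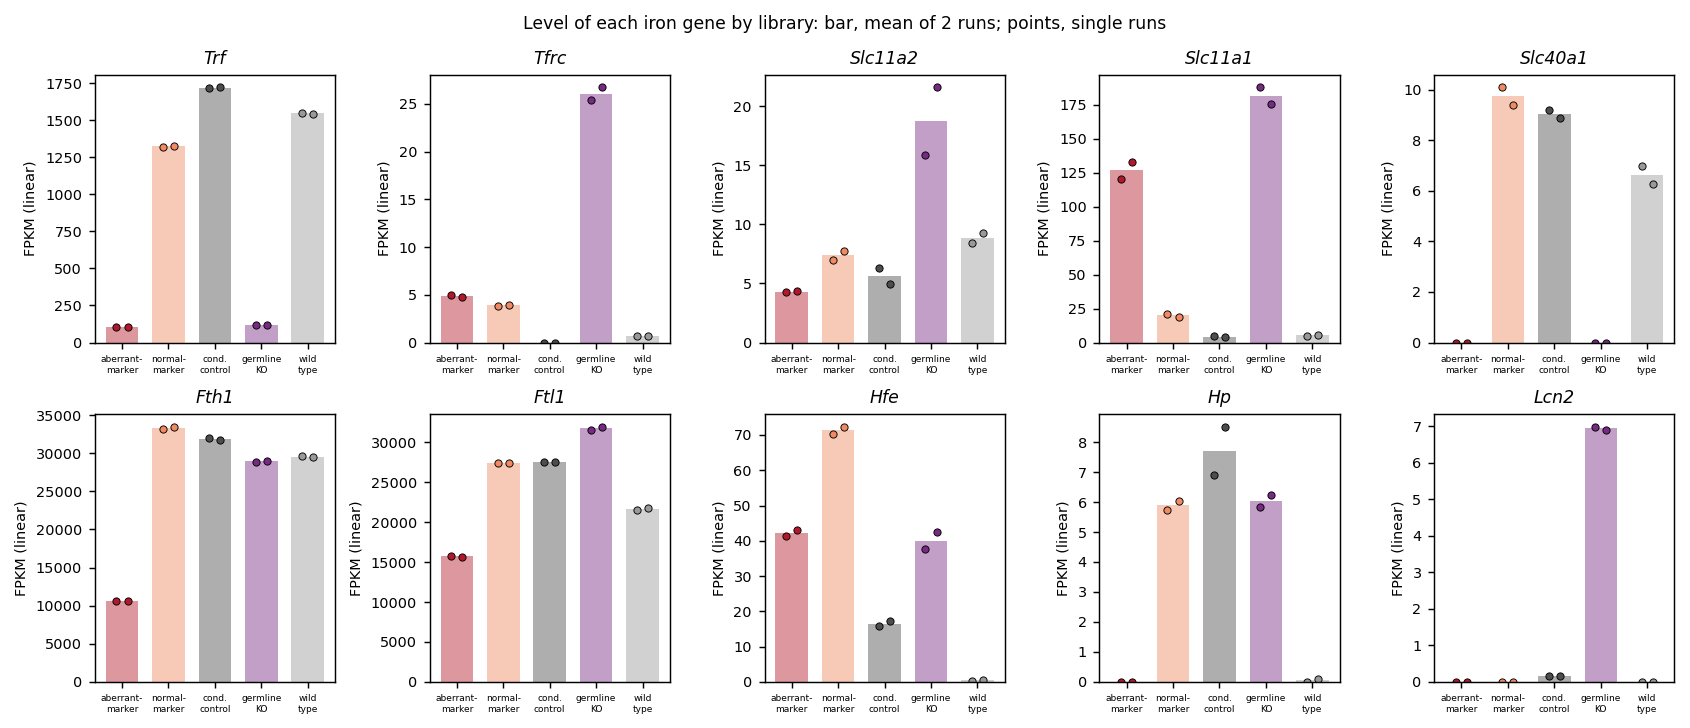
FPKM (linear axes, each panel its own scale) of the 10 iron genes in the 5 libraries. Bars are means of 2 runs and points are single runs. Trf stood at 103 and 120 FPKM in the aberrant-marker and germline knockout libraries and at 1324 to 1722 FPKM in the other libraries, while Slc11a1 stood at 127 and 182 FPKM in those libraries and at 4.28 to 19.9 FPKM in the others.

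Trf (chromosome 9, 103204001 to 103230444, minus strand, GRCm38) encodes transferrin, the iron carrier of plasma that is made mainly by the liver. It was called lower in both the aberrant-marker and the germline knockout library. Its exons overlap those of Gm20425 on the same strand, and reads shared by the 2 genes cannot be told apart. It had 103 and 103 FPKM in the aberrant-marker runs, against 1720 and 1724 FPKM in the conditional control runs. The germline knockout runs had 119 and 121 FPKM, against 1550 and 1546 FPKM in the wild-type runs. In both lines, the runs of the 2 libraries were far from overlapping. The fall was 16.7-fold in the aberrant-marker library (log2 difference -4.05, pairings of runs -4.05 to -4.04) and 12.9-fold in the germline knockout (log2 difference -3.68, pairings -3.69 to -3.67). Normal-marker macrophages kept 1320 and 1328 FPKM, 1.30-fold below the conditional control and not called. Within the conditional knockout, Trf was called lower in the aberrant-marker than in the normal-marker library (log2 difference -3.67). Trf was the gene ranked 35 by level in the conditional control and 37 in the wild type, and its rank was 925 in aberrant-marker cells and 750 in the germline knockout. In bulk samples such as these, fewer cells that express a gene and less RNA of it per cell cannot be told apart.

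Alveolar macrophage markers moved with Trf in part. Marco was at 0.258 FPKM in the aberrant-marker library, against 224 FPKM in the conditional control, and at 13.5 FPKM in the germline knockout, against 339 FPKM in the wild type. Of the 10 such markers in the table, 7 were at 1 FPKM or more in the aberrant-marker library, 7 in the germline knockout, and 10 in each of the other libraries. Their summed level was 8719 to 8844 FPKM in the aberrant-marker and 47185 to 47410 FPKM in the germline knockout runs, against 15397 to 15614 FPKM in the conditional control and 17471 to 17685 FPKM in the wild-type runs. The chitinase-like gene Chil3 made up most of these sums. Not every marker was lower in the germline knockout. Chil3 was at 46574 FPKM, against 9278 FPKM in the wild type, and Fabp4 at 181 FPKM, against 145 FPKM. The normal-marker runs, where Trf stayed near its control, summed to 33067 to 33372 FPKM. The part of these markers' cells in the fall of Trf was not tested. The genes nearest to Trf in profile over the 5 library means (Euclidean distance of centred log2(FPKM + 1) values, among 5341 genes) were Slc9a4 at a distance of 0.388, Leng9 at 0.467 and Kazald1 at 0.515.

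Tfrc encodes the receptor that takes up iron-laden transferrin. It was at 25.4 and 26.7 FPKM in the germline knockout runs, against 0.670 and 0.629 FPKM in the wild-type runs, a called rise (log2 difference 4.04, pairings 3.98 to 4.09). In the conditional line it was low throughout. The aberrant-marker runs had 4.99 and 4.78 FPKM, the normal-marker runs 3.87 and 3.94 FPKM, and both conditional control runs were listed at 0. None of these libraries reached the level needed for a call. All 3 knockout libraries lay above both control libraries. The conditional control listed at 0 10.2% of genes at 5 to 10 FPKM in the aberrant-marker library and 1.76% of genes in that range in the normal-marker library, and Tfrc lay just below that range in both. The genes nearest to Tfrc in profile were Chchd10 at a distance of 0.845, Ece1 at 0.865 and Mfsd7a at 0.987.

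Slc11a2 encodes DMT1, which carries ferrous iron out of the endosome after transferrin has been taken up. It had 15.9 and 21.6 FPKM in the germline knockout runs, against 8.44 and 9.27 FPKM in the wild-type runs, a 2.12-fold difference below the threshold. The aberrant-marker runs had 4.24 and 4.39 FPKM, the normal-marker runs 7.01 and 7.73 FPKM, and the conditional control runs 6.28 and 4.95 FPKM. The runs of these 3 libraries did not overlap, but the conditional control runs were farther from each other than from the nearest run of either other library. The deposited table lists 2 Slc11a2 transcripts with different 3′ ends. The one that holds the hairpin shown above was at 6.56e-09 FPKM or less in every run, and the authors' software assigned the whole level to the transcript in which neither pattern was found. Slc11a2 exons overlap those of Gm5475 on the other strand, and reads of the 2 genes cannot be told apart where strand is not recorded.

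The macrophage transporter NRAMP1, encoded by Slc11a1, is known to move divalent metals across the phagosome membrane and to affect resistance to intracellular bacteria. Whether a working protein was made in these C57BL/6 mice was not measured. In mRNA level, Slc11a1 (chromosome 1, 74375195 to 74386062, plus strand, GRCm38) ran opposite to Trf. It had 121 and 133 FPKM in the aberrant-marker runs, against 4.50 and 4.07 FPKM in the conditional control runs. The germline knockout runs had 188 and 176 FPKM, against 5.04 and 5.52 FPKM in the wild-type runs. These rises were called, at log2 differences of 4.60 (pairings 4.47 to 4.72) and 4.86 (pairings 4.76 to 4.97). The control libraries were close to each other, 1.23-fold apart.

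Normal-marker macrophages lay in between for this gene. They had 21.2 and 18.6 FPKM, against the 4.50 and 4.07 FPKM of the conditional control runs, a log2 difference of 1.98 (pairings 1.83 to 2.13) that lay just under the threshold of 2. Aberrant-marker macrophages were called higher than normal-marker macrophages of the same line (log2 difference 2.61, pairings 2.45 to 2.77). Both listed Slc11a1 transcripts were higher. The main one was at 105 FPKM in the aberrant-marker library, against 3.73 FPKM in the conditional control, and at 156 FPKM in the germline knockout library, against 4.18 FPKM in the wild type. The other had 15.2 and 27.4 FPKM in the aberrant-marker runs, against 0.678 and 0.434 FPKM in the conditional control runs, and 20.6 and 30.4 FPKM in the germline knockout runs, against 0.826 and 1.38 FPKM in the wild-type runs. The ratio of Trf to Slc11a1 was 0.813 in the aberrant-marker, 66.6 in the normal-marker and 402 in the conditional control library, and 0.661 in the germline knockout library, against 293 in the wild type. The genes nearest to Slc11a1 in profile were Pdgfa at a distance of 0.428, Slamf7 at 0.533 and Anpep at 0.560.

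Monocyte-derived and interstitial macrophage markers were high in the same libraries as Slc11a1. Of the 9 markers in the table, 7 were at 1 FPKM or more in the aberrant-marker library and 7 in the germline knockout, against 4 in the normal-marker, 5 in the conditional control and 1 in the wild-type library. Their sums were 983 to 990 FPKM in the aberrant-marker runs, 164 to 174 FPKM in the normal-marker runs and 101 to 102 FPKM in the conditional control runs. The germline knockout runs had 431 to 438 FPKM, against 122 to 128 FPKM in the wild-type runs, where C1qa, C1qb, C1qc, Itgam and Ccr2 were listed at 0. Their part in the level of Slc11a1 was not tested.

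Slc40a1, the gene of ferroportin, the exporter that releases iron from macrophages, was listed at 0 in both aberrant-marker runs and both germline knockout runs. The normal-marker runs had 10.1 and 9.39 FPKM, the conditional control runs 9.22 and 8.88 FPKM, and the wild-type runs 6.98 and 6.27 FPKM. The libraries listed at 0 did not overlap with the other 3, but all levels were under the floor of 20 FPKM, so no call was made, and no fold is given against a library listed at 0. With a floor of 5 FPKM it met the rule as lower in both. Of 510 genes at 3 to 12 FPKM in every run of the normal-marker, conditional control and wild-type libraries, 4.12% were listed at 0 in the aberrant-marker library, 5.69% in the germline knockout library and 1.37% (7 genes, Slc40a1 among them) in both.

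**Figure D2:**
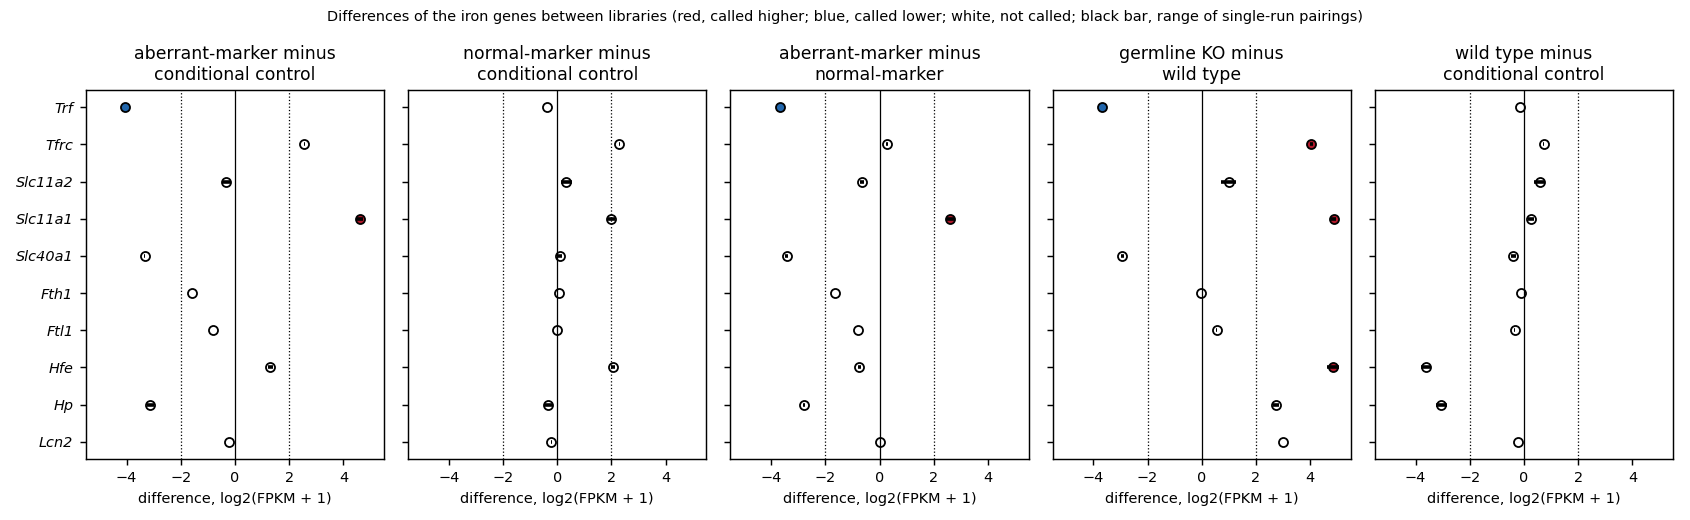
Difference between libraries on the log2(FPKM + 1) scale for the 10 iron genes in 5 comparisons. Points are differences of means, black bars the range over pairings of single runs, dotted lines the 4-fold threshold; red is called higher, blue called lower and white not called. Trf and Slc11a1 were called in the aberrant-marker library against both other libraries of its line and in the germline knockout, where Tfrc and Hfe were called as well.

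The ferritin chains were among the most abundant mRNAs of every library. Fth1 encodes the heavy chain, which oxidises iron as it enters the shell, and Ftl1 the light chain, which helps the iron core form. Fth1 had 10637 and 10662 FPKM in the aberrant-marker runs, 33210 and 33504 FPKM in the normal-marker runs and 32023 and 31745 FPKM in the conditional control runs. It had 28873 and 29010 FPKM in the germline knockout runs, against 29678 and 29453 FPKM in the wild-type runs. The aberrant-marker library was thus 2.99-fold below its control, short of the 4-fold threshold, and the germline knockout was at 0.979 of the wild type (log2 difference -0.03, but 0.05 with median ratio scaling). Fth1 was the gene ranked 5 by level in the aberrant-marker library and 1 to 3 in the others.

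Ftl1 had 15831 and 15696 FPKM in the aberrant-marker runs, 27381 and 27380 FPKM in the normal-marker runs and 27602 and 27575 FPKM in the conditional control runs. It had 31594 and 31992 FPKM in the germline knockout runs, against 21502 and 21800 FPKM in the wild-type runs. The aberrant-marker library was 1.75-fold below its control and the germline knockout 1.47-fold above the wild type. Neither was called. The control libraries differed 1.27-fold in Ftl1 and 1.08-fold in Fth1.

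The ratio of Fth1 to Ftl1 was 0.676 in the aberrant-marker, 1.22 in the normal-marker and 1.16 in the conditional control library, and 0.910 in the germline knockout, against 1.37 in the wild type. The runs gave 0.672 and 0.679 in the aberrant-marker and 0.914 and 0.907 in the germline knockout library, against 1.38 and 1.35 in the wild type. These pairs show the spread of repeat runs only. Together the chains made up 3.96% of the summed FPKM in the aberrant-marker, 9.31% in the normal-marker and 9.12% in the conditional control library. They made up 9.12% in the germline knockout, against 8.17% in the wild type. The mouse RefSeq annotation of GRCm38.p6 names 7 ferritin pseudogenes, 0 of which are rows of the deposited table, and whether their reads were counted with Fth1 and Ftl1 is not given in the sources used here. Ftl1 exons also overlap those of 2 other annotated genes, Gm10252 and Gm22133.

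**Figure D3:**
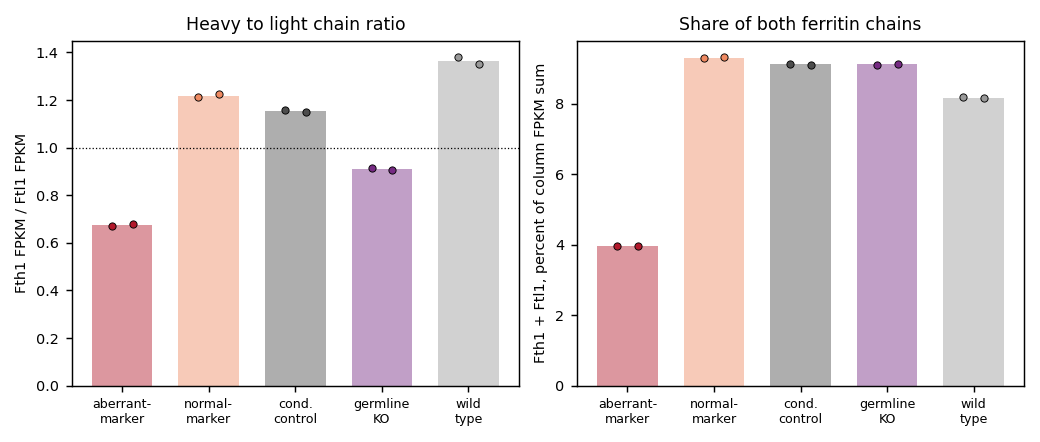
Left, ratio of Fth1 to Ftl1 FPKM by library; right, both chains as a percent of the summed FPKM of the column. Bars are the ratio of the means (left) or means of 2 runs (right) and points single runs; the dotted line marks equal levels. The ratio was below 1 in the aberrant-marker (0.676) and germline knockout (0.910) libraries and above 1 in the other 3.

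Hfe encodes a relative of the MHC class I proteins that binds the transferrin receptor and takes part in iron sensing, and its loss causes haemochromatosis. It had 41.2 and 43.0 FPKM in the aberrant-marker runs, 70.2 and 72.4 FPKM in the normal-marker runs and 15.9 and 17.1 FPKM in the conditional control runs. The germline knockout runs had 37.5 and 42.4 FPKM, against 0.310 and 0.552 FPKM in the wild-type runs. The 3 knockout libraries were all above both control libraries, and the aberrant-marker and germline knockout runs overlapped. Hfe was called higher in the germline knockout (log2 difference 4.84, pairings 4.63 to 5.05). That size rests on the wild type, where Hfe was 38.2-fold lower than in the conditional control, a difference not called because both levels were under 20 FPKM. The normal-marker library was 4.32-fold above its control (log2 difference 2.05), and 1 pairing of runs, at 1.97, fell short of the threshold. The aberrant-marker library was 2.55-fold above the same control and not called. The genes nearest to Hfe in profile were Fam173b at a distance of 0.723, Apobec1 at 1.16 and Spsb3 at 1.24.

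Bach proteins pair with small Maf proteins and bind sites built around the AP-1 motif TGAGTCA or one like it. TGAGTCA and the related motif TGACNNNGC were searched for on both strands of the promoter windows in RefSeq (GRCm38.p6, 250 bases before to 50 bases after the start). TGACNNNGC starts with TGAC, as does TGACTCA, the reverse complement of TGAGTCA, so the motifs are not independent. Windows were at hand for 6 of the 10 genes, Slc11a1, Lcn2, Ftl1, Hfe, Tfrc and Fth1, in 8 windows. TGAGTCA was found in 5.20% of all 32851 windows and TGACNNNGC in 12.4%, and among these genes in Hfe alone. In Hfe they overlap from the same base, as in 0.454% of all windows. The Hfe window is shown because it is the one that matched. Slc11a1 and Tfrc, which like Hfe were higher in every knockout library than in its own control, had windows without either motif. It is given 5′ to 3′ on the minus strand, chr13:23710805-23711104, with the overlapping motifs in capitals, 58 bases before the start of transcription.
Hfe promoter: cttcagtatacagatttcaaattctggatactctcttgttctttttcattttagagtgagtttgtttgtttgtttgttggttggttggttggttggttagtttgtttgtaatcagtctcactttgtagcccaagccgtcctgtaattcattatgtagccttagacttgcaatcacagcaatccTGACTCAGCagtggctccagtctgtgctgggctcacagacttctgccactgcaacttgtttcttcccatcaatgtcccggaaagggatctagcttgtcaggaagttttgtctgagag
The match describes the letters, not a bound site, and binding of Bach2 was not measured in these data. A window without the motifs says nothing of the factor.

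Hp and Lcn2 encode secreted scavengers that keep iron from microbes and from causing oxidative damage. Hp (haptoglobin, which binds free haemoglobin) was listed at 0 in both aberrant-marker runs, had 5.74 and 6.05 FPKM in the normal-marker runs, and 6.89 and 8.52 FPKM in the conditional control runs. The germline knockout runs had 5.82 and 6.22 FPKM, against 0 and 0.0916 FPKM in the wild-type runs, where 1 fragment was worth about 0.0825 FPKM. Hp was therefore near 0 in 1 knockout and in 1 control library. The log2 difference of the wild type to the conditional control was -3.06, close to the -3.12 of the aberrant-marker library. Lcn2 (lipocalin 2, which binds bacterial siderophores) had its highest level in the germline knockout runs, with 6.99 and 6.91 FPKM. The conditional control runs had 0.158 and 0.161 FPKM, about 1 fragment each, and the other 3 libraries were listed at 0. It entered the comparisons through the germline knockout library only.

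Both genes are also known from neutrophils, and Lcn2 from lung epithelium. Of 12 neutrophil markers, 8 to 9 were listed at 0 in every library, Ly6g, Mpo, Elane, Camp, Ngp, Retnlg, Mmp9 and the lactoferrin gene Ltf among them. Summed levels were 39.3 to 50.7 FPKM in the germline knockout runs, against 41.0 to 42.4 FPKM in the wild-type runs, but single markers differed. S100a8 was at 43.7 FPKM in the germline knockout, against 4.83 FPKM in the wild type, Mmp8 at 0.782 FPKM, against 27.0 FPKM, and Csf3r at 0.109 FPKM, against 9.80 FPKM. The part of such cells in Hp and Lcn2 was not tested. The epithelial markers Sftpc, Sftpb, Sftpa1, Sftpd, Krt8 and Krt18 were listed at 0 in all libraries. Of the 11 in that list, 2 were at 1 FPKM or more in the germline knockout, with sums of 73.5 to 75.4 FPKM, against 4 in the wild type with 173 to 176 FPKM. The 8 erythroid markers summed to 22.5 to 25.0 FPKM in the normal-marker and 11.9 to 13.3 FPKM in the wild-type runs, nearly all of it Epor, the erythropoietin receptor gene (21.5 and 12.6 FPKM), and to 0.973 FPKM or less in the runs of the other libraries.

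Counted together, 2 of the 10 iron genes were called between the aberrant-marker and the conditional control library, 1 higher (Slc11a1) and 1 lower (Trf), where 7.85% of the 11336 genes compared were called (4.09% higher, 3.76% lower). The median log2 difference of the 10 was -0.56 there, 0.08 in the normal-marker library against its control and 1.88 in the germline knockout against the wild type, each against 0 over all genes. The germline median includes Lcn2 (2.99), which entered the comparisons through the germline knockout library only and so raises this median. Between the aberrant-marker and normal-marker libraries the same 2 genes were called, against 7.28% of all genes (4.02% higher, 3.26% lower). Between the germline knockout and the wild type 4 of 10 were called, 3 higher (Slc11a1, Tfrc, Hfe) and 1 lower (Trf), against 6.10% of all genes (2.73% higher, 3.36% lower). Between the normal-marker and the conditional control library 0 of 10 were called, against 1.77% of all genes (0.935% higher, 0.838% lower). The wild type set against the conditional control also gave 0, against 2.11% of all genes (0.935% higher, 1.17% lower). With 10 genes, each call is 10% of the list. The aberrant-marker and normal-marker comparisons share the conditional control.

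The other genes of iron handling were taken from a list of 57, of which 53 were in the table and 35 passed the filter. Few of them were called, and 14 were listed at 0 in every run, among them Tfr2, Heph, Hamp2, Tmprss6, Hpx and Ltf. In the aberrant-marker library against the conditional control, 0 were higher and 1 lower, against 4.09% higher and 3.76% lower over all genes, so the count is no more than the background. Of the 35, 23 were below 0, against 48.8% of all genes, with a median log2 difference of -0.40. The called gene was Blvra, a biliverdin reductase of the haem breakdown pathway, at 43.4 FPKM, against 200 FPKM, and the call was lost with median ratio scaling. Several neighbours in haem handling lay on the same side without a call. The haem oxygenase gene Hmox1 was at 119 FPKM, against 513 FPKM (log2 difference -2.10), but its aberrant-marker runs differed, with 96.5 and 141 FPKM, and not every pairing of runs passed the threshold. The haem transporter gene Slc48a1 was at 41.0 FPKM in the aberrant-marker library, against 155 FPKM in the conditional control. Of 10 haem and haemoglobin genes that passed the filter, 9 were below 0 (median -1.21). The scaffold gene of iron-sulfur clusters, Iscu, went the other way, with 572 FPKM in the aberrant-marker library, against 153 FPKM in the conditional control, and was not called.

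In the germline knockout, 0 of the 35 were higher and 2 lower than in the wild type, a share near the 6.10% called over all genes, with a median of -0.33. Slc25a28, a mitochondrial iron importer, was at 4.69 FPKM, against 25.3 FPKM, a call lost with median ratio scaling and with the highest transcript only, and Lyrm4, a subunit of iron-sulfur cluster assembly, at 4.46 FPKM, against 23.7 FPKM. Slc25a28 was also called lower in the aberrant-marker than in the normal-marker library, at 5.17 FPKM, against 26.5 FPKM, but the conditional control itself was at 10.4 FPKM. Ncoa4, which delivers ferritin to lysosomes for breakdown, was at 79.9 FPKM in the germline knockout, against 197 FPKM in the wild type. The aberrant-marker library had 96.5 FPKM, against 189 FPKM in the conditional control. Neither difference was called. Under the floor of 20 FPKM there were rises as well. Abcg2, a haem and drug exporter, had 12.1 and 11.8 FPKM in the germline knockout runs, against a mean of 0.0672 FPKM in the wild type, and was at 7.84 FPKM in the normal-marker library, against 0.397 FPKM in the conditional control. Slc25a37, a mitochondrial iron importer, was at 8.51 FPKM in the germline knockout, against 0.169 FPKM in the wild type. Slc48a1 was at 73.4 FPKM in the germline knockout, against 255 FPKM in the wild type, also without a call. Of the other abundant genes, Snx3, which helps recycle the transferrin receptor, ranged from 252 to 424 FPKM over the 5 libraries, Hmox2 from 101 to 154 FPKM and the flavin reductase gene Blvrb from 73.1 to 163 FPKM. The iron chaperone gene Pcbp1 was at 158 FPKM, against 268 FPKM, in the germline knockout and wild type, while the aberrant-marker library had 245 FPKM, against 192 FPKM in the conditional control.

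Of the 4 iron sensing genes 0 were called in any comparison, where 1.77% to 7.85% of all genes were. Aco1, whose protein is iron regulatory protein 1, was at 24.3 FPKM in the aberrant-marker, 19.1 FPKM in the normal-marker and 46.6 FPKM in the conditional control library, and at 25.9 FPKM in the germline knockout, against 46.1 FPKM in the wild type. All 3 knockout libraries were below both control libraries. Ireb2, the gene of iron regulatory protein 2, was at 3.43, 2.92 and 4.83 FPKM in the aberrant-marker, normal-marker and conditional control libraries, and at 0.930 FPKM in the germline knockout, against 6.43 FPKM in the wild type. Epas1, the gene of the hypoxia factor HIF-2 alpha, was at 1.53, 12.7 and 0.120 FPKM in the aberrant-marker, normal-marker and conditional control libraries, and at 11.6 FPKM in the germline knockout, against 2.48 FPKM in the wild type. Fbxl5, which targets iron regulatory protein 2 for breakdown, was at 36.3, 82.8 and 62.5 FPKM in the same 3 libraries, and at 77.5 FPKM in the germline knockout, against 68.0 FPKM in the wild type. Slc22a17, a receptor for lipocalin 2, was at 0.0383, 1.88 and 6.23 FPKM in the aberrant-marker, normal-marker and conditional control libraries, and at 0.948 FPKM in the germline knockout, against 13.7 FPKM in the wild type. In the normal-marker library against the conditional control 0 of the 35 were called, with a median of -0.05. The wild type and the conditional control also differed in 0 of the 35 (median 0.04).

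**Figure D4:**
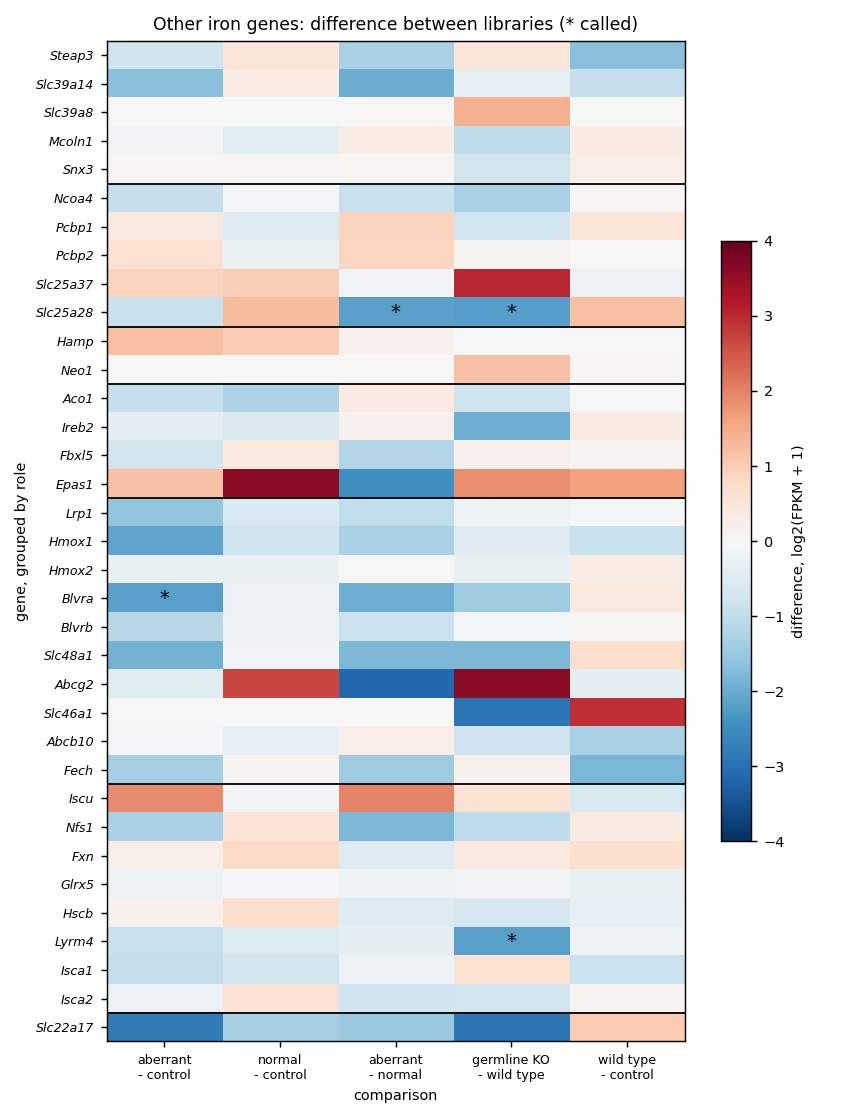
Difference on the log2(FPKM + 1) scale of the 35 other iron genes that passed the filter, in rows grouped by role (import, storage, export control, iron sensing, haem, iron-sulfur clusters, siderophore), for 5 comparisons in columns. Red is higher and blue lower in the library named first, and an asterisk marks a call. The 4 asterisks are on falls (Slc25a28 in 2 comparisons, Blvra and Lyrm4 in 1 each). With a floor of 5 FPKM, rises of Abcg2, Epas1 and Slc25a37 were called too, as were falls of Slc22a17, Epas1, Abcg2 and Slc46a1. At that floor Slc46a1 was also called higher in the wild type than in the conditional control. It was listed at 0 in all libraries but the wild type and passed the filter through the wild type only.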

How the data were processed

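Per the labels' protocols, cDNA was made from 100 pg of total RNA with 18 PCR cycles. The authors deposited FPKM values for 45913 RefSeq transcripts in 10 columns, each matched to a sample by its title, and 0 columns were left out. Tools named without a role in the submitters' processing notes are Bowtie 1.1.2 and eXpress 1.5.1. Build and strand are not given in these sources. FPKM were summed per Entrez gene with Python 3.11.15 and pandas 2.3.3. Of these, 11336 reached 1 FPKM in 2 or more columns and were compared as log2 values with a pseudocount of 1 FPKM. The columns of a group were averaged to 1 library, so no test was run. The rule of size was run on simulated data with planted changes well above its threshold, in genes above its floor. That run does not cover differences near the threshold, low genes or variation between mice. Depth was estimated from the steps of the lowest values of genes with 1 transcript over 1.5 kb, and covers annotated, not effective, length. The iron genes, lists and rules were chosen with earlier results of these data known. Every member was named in every comparison. From the other iron genes, called genes and up to 6 uncalled ones of the highest mean level per comparison were named, while Hmox2, Abcg2, Slc25a37, Slc46a1, Slc22a17, the iron sensing genes and those listed at 0 were picked with their values known. The alternatives were the pseudocount, the filter, the floor, the fold threshold, 2 scalings, the highest transcript only, single runs and the wild type as the reference.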

Additional observations from a re-analysis of the deposited data

Results flagged for a closer look

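Values are log2(FPKM + 1) differences between libraries. Several iron genes went opposite ways on the scale as deposited in the 2 mouse lines in every pairing of runs; the difference between the lines was not tested, since each library stands alone. Between the aberrant-marker effect (against the conditional control) and the germline knockout effect (against the wild type), Ftl1 differed by -1.36 (-0.81 and 0.55), Slc11a2 by -1.32 (-0.32 and 1.00), Hp by -5.87 (-3.12 and 2.75) and Lcn2 by -3.20 (-0.21 and 2.99). Between the normal-marker effect and the germline knockout effect, Slc40a1 differed by 3.03 (0.10 and -2.93), Fth1 by 0.096 (0.07 and -0.03), Ftl1 by -0.57 (-0.01 and 0.55), Hp by -3.08 (-0.34 and 2.75) and Lcn2 by -3.20 (-0.21 and 2.99). The 2.75 of Hp rests on its near absence from the wild-type library, and the -3.12 on its listing at 0 in the aberrant-marker library. The Lcn2 differences rest almost wholly on the germline knockout library, the one through which Lcn2 passed the filter. With median ratio scaling Fth1 (0.13 and 0.05) and Ftl1 (0.05 and 0.64) went the same way in the normal-marker and germline knockout comparisons.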

How the results depend on the processing

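No paired analysis was run, because each group was counted as 1 library and the sample titles do not say which samples share a mouse. The 8 called values of iron genes kept their direction in all 88 recomputations. The filter, the floor and the fold threshold do not enter a log2 difference, so the recomputations with these could not change it. Of the uncalled ones, 2 changed sign with median ratio scaling, Fth1 in the germline knockout (0.05, against -0.03 as reported) and Ftl1 in the normal-marker library (0.05, against -0.01). A floor of 5 FPKM raised the called iron genes to 4 (aberrant-marker against conditional control), 4 (against normal-marker), 7 (germline knockout against wild type) and 2 (wild type against conditional control), and the other iron genes to 2 (0 higher, 2 lower), 2 (normal-marker against control; 2 higher), 3 (0 higher, 3 lower), 6 (2 higher, 4 lower) and 1 (higher). A 2-fold threshold gave 4 iron genes for the aberrant-marker and 1 for the normal-marker library against the conditional control, and 7, 2, 8, 5 and 2 other iron genes. The share over all genes with this floor or this threshold is not given here, so these counts have no background to be read against. In the normal-marker comparison 1 iron gene was called with a pseudocount of 0.1, with median ratio scaling and against the wild type, and 0 to 1 with single runs left out (1 without normal-marker sample 2 or 7 or without conditional control sample 6), against 0. Columns rescaled to a common sum of 1e6 gave 1 iron gene between the control libraries and 2 other iron genes between the aberrant-marker and normal-marker libraries. Other iron genes came to 0, 2 and 1 with median ratio scaling (aberrant-marker against control, against normal-marker, and germline knockout), to 2, 1 and 1 with the highest transcript only (aberrant-marker against normal-marker, germline knockout, wild type), and to 3 with the wild type as the reference for the aberrant-marker library. With single runs left out they came to 1 to 2 in both aberrant-marker comparisons (2 without aberrant-marker sample 8 against the control, and 2 without sample 3 or normal-marker sample 2 against the normal-marker library). The causes were not tested. Levels under 20 FPKM, such as those of Slc40a1, Hp and Lcn2, could not be called.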
